A study of Mus musculus with 6 samples.

Results

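The 9 genes described here encode the core of transforming growth factor beta (TGF-beta) signalling in mouse: 3 ligands (Tgfb1, Tgfb2 and Tgfb3), 2 receptors (Tgfbr1 and Tgfbr2) and 4 Smads (Smad2, Smad3, Smad4 and Smad7). They were chosen by name, matched by gene symbol to the annotation of the array, and read as 9 of 22180 measured genes, each from the single probe set that carries its name. Liver RNA came from 6 male C57BL/6J mice, 1 array per mouse. The 3 HKO mice (genotype SlugHKO) have a floxed Slug gene, symbol Snai2, and an albumin-CreERT2 driver, which directs the deletion to hepatocytes, while the 3 Con mice are Slug f/f littermates. Both groups ate a high fat diet, with fat making up 60% of its calories, for 11 weeks from an age of 8 weeks. The driver spares Slug in other liver cells. The sources used here do not state how recombination was induced or whether Con mice carry the driver. Arrays of whole liver cannot tell fewer cells of a type from less RNA per cell.

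TGF-beta ligands are secreted in a latent form that stays bound to the matrix until integrins, proteases or thrombospondin release them. The active ligand binds TGFBR2, which recruits and phosphorylates TGFBR1, and TGFBR1 phosphorylates SMAD2 and SMAD3. These join SMAD4 and enter the nucleus, where they switch on matrix, cytoskeletal and feedback genes, among them Smad7, whose product blocks the receptor. In liver the pathway is best known for driving hepatic stellate cells to make collagen, and Slug belongs to the Snail family of repressors that TGF-beta induces in many epithelia.

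The values are log2 array values on a scale fixed by the authors. Differences are HKO minus Con with the moderated standard error (SE) of limma, and p-values were adjusted over all 22180 genes by the Benjamini-Hochberg method with a threshold of 0.05. Snai2, the deleted gene, stood at 4.62, 5.23 and 5.69 in the HKO arrays, against 7.74, 7.69 and 7.39 in the Con arrays (change -2.43 ± 0.25, limma adjusted p = 0.0145, lost without HKO replicate 2, Con replicate 1 or Con replicate 2, where it was 0.0621, 0.0758 and 0.0927). Hepatocyte markers were bright on every array, with Alb (albumin) between 12.4 and 12.5, and no array stood apart (correlations over genes 0.989 to 0.992 within groups and 0.986 to 0.988 between them). Over all genes the median level was 3.94, and a gene below that level is not shown to be above background.

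In limma 0 of the 9 genes passed adjusted p 0.05. Since 0.203% of all genes passed, a count of 0 among 9 is near the background and is not a result about these genes. It does not show that their levels were equal in HKO and Con livers. At an unadjusted p under 0.05 there was 1, Tgfb3, lower in HKO, where 11.9% of all genes passed. HKO and Con arrays did not overlap for 1 of the 9, again Tgfb3, against 18.2% of all genes. The mean was lower in HKO for 8 of the 9 and higher for Smad4. It was lower for 11484 of all 22180 genes and for 6338 of the 11090 genes above the median level. The median change of the 9 was -0.14, against -0.0081 over all genes and -0.03 over the genes above the median level. The share of all genes past the threshold rests on single arrays: 45 genes passed with all arrays, and 25, 6 and 16 without HKO replicates 1, 2 and 3 and 5, 4 and 32 without Con replicates 1, 2 and 3, while 0 of the 9 passed in each of these fits.

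**Figure D1:**
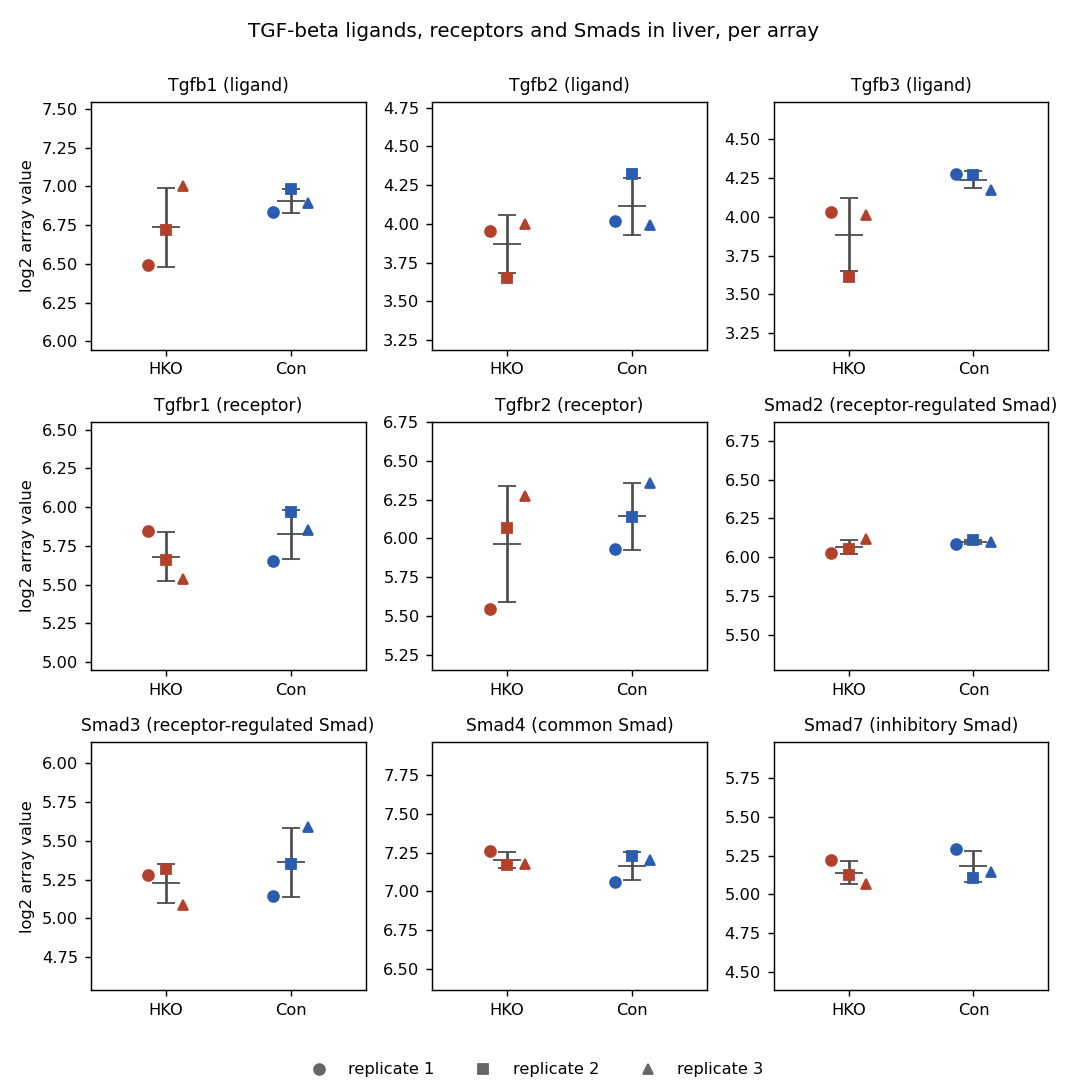
Log2 array value of each of the 9 genes in 3 HKO and 3 Con livers. Each point is 1 mouse, the horizontal bar is the group mean and the error bar 1 SD; every panel spans the same 1.6 log2 units, and levels are not comparable between panels. The arrays of the groups overlap for every gene but Tgfb3.

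Among the ligands, Tgfb1 is the main form made by macrophages, platelets and stellate cells. Its values were 6.49, 6.72 and 7.0 in the HKO arrays and 6.83, 6.99 and 6.89 in the Con arrays. The highest and the lowest of the 6 arrays were both HKO livers, so the groups overlapped, and the HKO arrays were the more spread (SD 0.25, against 0.08 in Con, n = 3 each). The change was -0.17 ± 0.14 (limma adjusted p = 0.701), with a 95% interval from 0.713 to 1.11 times the Con level, and it stood at -0.045 without HKO replicate 1 and at -0.30 without HKO replicate 3.

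Tgfb2, a ligand of epithelial and mesenchymal cells, was dim. It stood at 3.95, 3.65 and 4.0 in HKO livers and at 4.02, 4.32 and 3.99 in Con livers, a change of -0.24 ± 0.14 (adjusted p = 0.550). Con replicate 2 was the highest array and HKO replicate 2 the lowest, and the other 4 lay within a narrow band that held both groups. Without either of these 2 arrays the change was -0.14.

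Tgfb3, the third ligand, showed the widest separation of the 9 genes. The HKO arrays held 4.03, 3.61 and 4.01 and the Con arrays 4.27, 4.27 and 4.17, so every HKO liver lay below every Con liver. The change was -0.36 ± 0.13, with an unadjusted p of 0.0275 and a limma adjusted p of 0.360. It shrank to -0.22 without HKO replicate 2, the lowest array (adjusted p = 0.552), and ran from -0.43 to -0.34 without any other array. Of all genes, 7.62% had a lower p, so the separation of Tgfb3 is a common one on these arrays. The HKO mean of 3.88 and that of Tgfb2, 3.87, lie just below the median gene, which leaves the size of either difference uncertain.

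The type I receptor kinase Tgfbr1 had values of 5.85, 5.66 and 5.53 in HKO and 5.65, 5.97 and 5.85 in Con, a change of -0.14 ± 0.13 (adjusted p = 0.718). The groups were interleaved, and the change ran from -0.23 without Con replicate 1 to -0.071 without HKO replicate 3. The type II receptor Tgfbr2, which binds the ligand first, had values of 5.55, 6.07 and 6.27 in HKO and 5.93, 6.14 and 6.36 in Con. Only HKO replicate 1 lay below all Con arrays, and this gene had the widest spread of the 9 within HKO (SD 0.38, against 0.21 in Con). Its change was -0.18 ± 0.20 (adjusted p = 0.778). It turned to 0.03 without HKO replicate 1, reached -0.33 when HKO replicate 3 was left out and shrank to -0.071 on leaving out Con replicate 3.

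Of the Smads that the receptor phosphorylates, Smad2 was nearly flat over the 6 livers, at 6.03, 6.06 and 6.12 in HKO and 6.09, 6.11 and 6.10 in Con (change -0.03 ± 0.09, adjusted p = 0.925). Its lowest and its highest array were both HKO livers and lay 0.09 apart. Smad3, the partner that binds DNA directly, stood at 5.28, 5.32 and 5.08 in HKO and at 5.15, 5.35 and 5.59 in Con. Here the Con arrays were the more spread (SD 0.22, against 0.13 in HKO), and the change was -0.13 ± 0.14 (adjusted p = 0.757), at -0.24 without Con replicate 1 and -0.021 without Con replicate 3.

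Smad4, the shared partner of TGF-beta and BMP Smads, had values of 7.26, 7.17 and 7.18 in HKO and 7.06, 7.23 and 7.20 in Con (change 0.04 ± 0.10, adjusted p = 0.914). The inhibitory Smad7, a feedback gene of the pathway, had values of 5.22, 5.13 and 5.07 in HKO and 5.29, 5.11 and 5.14 in Con (change -0.04 ± 0.10, adjusted p = 0.914). Both genes overlapped between the groups. Their small changes have no settled direction: Smad4 stood at -0.01 without Con replicate 1 and Smad7 at 0.01 without Con replicate 1, and Smad2 and Smad7 both stood at 0.01 after a second quantile normalization.

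**Figure D2:**
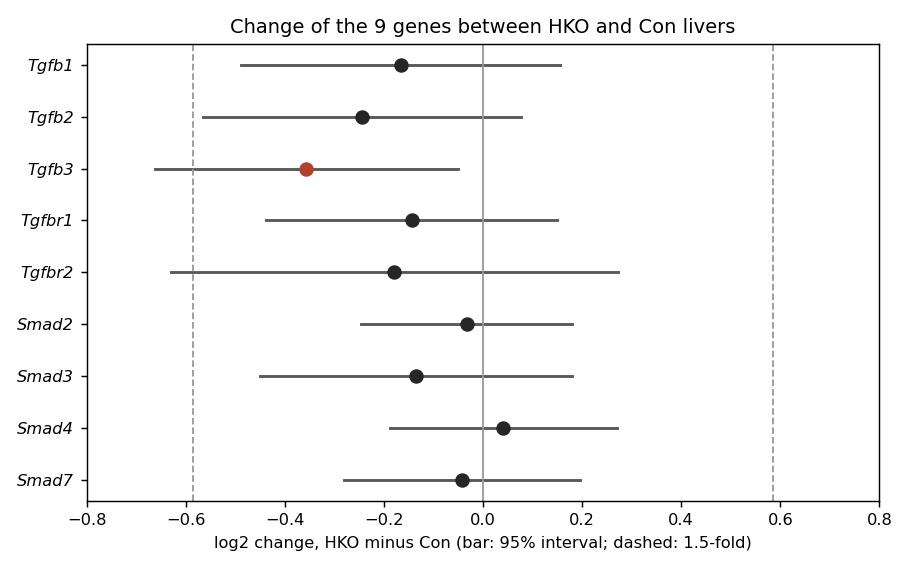
Log2 change (HKO minus Con) of the 9 genes on the horizontal axis, with limma's 95% interval as the bar and 1.5-fold as dashed lines. The red point marks Tgfb3, the gene whose groups do not overlap; 8 of 9 intervals include 0 and 7 of 9 lie inside 1.5-fold.

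The intervals bound what these arrays allow. For 7 of the 9 genes the 95% interval lay within a 1.5-fold difference either way, and for Tgfb3 and Tgfbr2 it reached below that on the lower side, to 0.631 and 0.646 times the Con level. These intervals are per gene and are not adjusted for the number of genes. HKO livers had the larger SD for 6 of the 9 genes. A HKO array was the lowest of the 6 for 8 of the 9, shared among replicates 1 (3 genes), 2 (2 genes) and 3 (3 genes). Neither count was taken over all genes, so both are descriptions only.

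Likeness to Tgfb3, the gene with the largest change of the 9, was measured as the root mean square difference over the 6 arrays after each gene was centred on its own mean. Among genes above the median level the closest were Wdyhv1 (0.05), Srrm3 (0.05), Anapc10 (0.06), Tecpr2 (0.06) and Brd9 (0.06). Their HKO minus Con changes ran from -0.36 to -0.28, and none of these 5 passed (adjusted p from 0.278 to 0.464). The measure includes the step between the groups, so changes near that of Tgfb3 follow from the way these genes were picked.

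Promoter windows came from the RefSeq promoter table (GRCm38.p6, 300 bases around each transcription start). Tgfb3 had no window in it. Smad2, Smad4 and Smad7 were left out of the search, so nothing is said here of their promoters. The 6 windows used belong to 5 of the 9 genes: Tgfb1, Tgfb2, Tgfbr1 (which has 2), Tgfbr2 and Smad3. They were searched for the E-box that Snail family proteins bind (CAGGTG or its reverse complement CACCTG) and for the core of the Smad binding element (CAGAC or its reverse complement GTCTG), which do not overlap. The E-box letters were in 0 of the 6 windows, against 20.2% of all 32851 windows. The Smad core was in 3 of the 6, against 49.6% of all windows. Of these windows that of Tgfb2 held the most Smad cores, 2, and it is printed beside that of Col1a2, a collagen gene that TGF-beta induces and that fell in HKO, which holds 1. Capitals mark the Smad core; a match describes letters, not a bound site.
Tgfb2, chr1:186705940-186706239, minus strand: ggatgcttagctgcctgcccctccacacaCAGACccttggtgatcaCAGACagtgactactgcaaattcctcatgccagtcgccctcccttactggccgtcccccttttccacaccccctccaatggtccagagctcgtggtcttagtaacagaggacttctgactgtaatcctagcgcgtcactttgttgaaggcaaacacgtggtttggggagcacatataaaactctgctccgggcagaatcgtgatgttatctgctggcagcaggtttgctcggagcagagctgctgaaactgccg
Col1a2, chr6:4505368-4505667, plus strand: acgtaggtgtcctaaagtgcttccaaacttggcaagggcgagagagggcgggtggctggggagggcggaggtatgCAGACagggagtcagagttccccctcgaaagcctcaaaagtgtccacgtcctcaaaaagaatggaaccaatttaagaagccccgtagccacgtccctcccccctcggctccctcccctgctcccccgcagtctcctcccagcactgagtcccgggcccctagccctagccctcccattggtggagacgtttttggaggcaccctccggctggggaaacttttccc

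Around the 9 genes, 137 other genes of the pathway and its activin and BMP branches were read in 10 lists set by role. In limma 2 of the 137 passed, Plat and Col1a2, both lower in HKO, where 0.203% of all genes passed in either direction. At an unadjusted p under 0.05 there were 9 higher and 26 lower, where 5.31% and 6.56% of all genes were. The median over the 137 was -0.06.

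**Figure D3:**
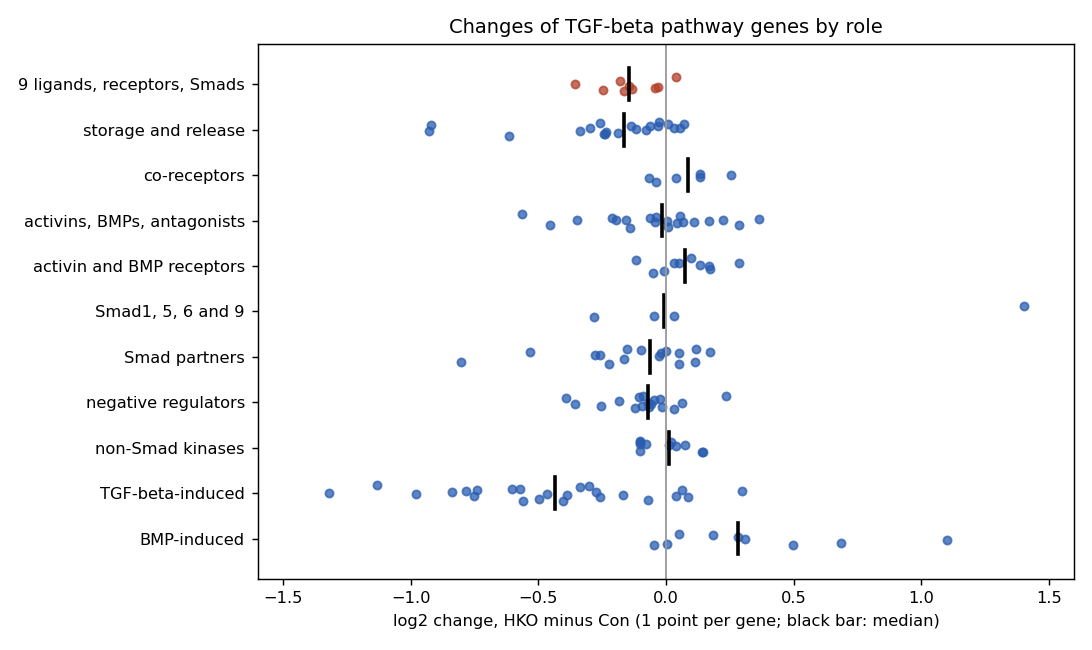
Log2 change (HKO minus Con) of each measured gene, 1 point per gene, by role; the black bar is the median of the list. The 9 ligands, receptors and Smads lie between -0.36 and 0.04, the TGF-beta-induced genes have a median of -0.43 and the BMP-induced genes a median of 0.28.

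Genes that store or release latent TGF-beta numbered 20. Of these 1 fell, where 0.203% of all genes passed in either direction. At an unadjusted p under 0.05 there were 6 lower and 0 higher, where 6.56% and 5.31% of all genes were, and the median was -0.16. Plat, tissue plasminogen activator, a protease that makes the plasmin which can free the ligand, fell: it stood at 3.23, 3.27 and 3.43 in HKO livers and 4.15, 4.25 and 4.32 in Con livers (change -0.93 ± 0.10, limma adjusted p = 0.0222). All HKO arrays lay well below all Con arrays, though the HKO mean of 3.31 is not shown to be above background, so the size of the change is uncertain. The call was lost without any single array (adjusted p from 0.0547 to 0.143), while the change ran from -0.99 to -0.89.

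Other genes of this list, named after their values were seen, did not pass. Thbs1, thrombospondin 1, which opens the latent complex, had values of 3.80, 3.77 and 4.14 in HKO and 4.62, 5.09 and 4.76 in Con (change -0.92 ± 0.16, limma adjusted p = 0.0835). Mmp14, a membrane protease, stood at 6.97, 6.73 and 6.66 in HKO and 7.51, 7.46 and 7.24 in Con (change -0.62 ± 0.13, adjusted p = 0.133). The groups did not overlap for either gene, and the HKO mean of Thbs1 is not shown to be above background. The integrin chains Itgav and Itgb5, which pull the latent complex open, were at -0.24 ± 0.09 and -0.24 ± 0.10, and Dcn, decorin, a matrix protein that binds the ligand, was at -0.34 ± 0.10 (adjusted p = 0.380, 0.415 and 0.278). A second, dim probe set of Itgav stood at -0.09, and the mean over both probe sets at -0.16. Furin, which cleaves the ligand precursor in the cell, was at 0.07 ± 0.09 (adjusted p = 0.811).

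The co-receptors showed no call, and 1 of 6 was higher at an unadjusted p under 0.05, where 5.31% of all genes were. Their median was 0.09. Nrp1, neuropilin 1, was at 7.95, 8.07 and 7.98 in HKO and 7.70, 7.76 and 7.77 in Con (change 0.25 ± 0.10, limma adjusted p = 0.360). Cd109, a membrane protein that binds TGF-beta, was at 0.13 ± 0.13 (adjusted p = 0.741) at a level below the median gene. Tgfbr3, betaglycan, which presents ligand to the type II receptor, was at 0.13 ± 0.14. The endothelial co-receptor Eng and the endothelial type I receptor Acvrl1 were at -0.07 ± 0.11 and 0.04 ± 0.11, and the sign of Acvrl1 turned without 1 array (-0.03 without HKO replicate 3, -0.01 without Con replicate 3).

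Activins, BMPs and their soluble antagonists, 20 genes, had a median of -0.02, with 0 past the threshold in limma. At an unadjusted p under 0.05 there were 1 higher and 3 lower, where 5.31% and 6.56% of all genes were. Inhba, the activin A subunit, stood at 4.96, 4.90 and 4.80 in HKO and 4.33, 4.73 and 4.51 in Con (change 0.36 ± 0.13, adjusted p = 0.326). The antagonist Grem1 (-0.56 ± 0.12, adjusted p = 0.136) and the follistatin-like Fstl1 (-0.45 ± 0.11, adjusted p = 0.186) were lower in every HKO array than in any Con array, with Grem1 below the median gene in both groups. Of 10 activin and BMP receptors 0 passed and 1 was higher at an unadjusted p under 0.05, where 5.31% of all genes were. It was Acvr2b, at 0.29 ± 0.10 (adjusted p = 0.328) and below the median gene in both groups, and Acvr1 was at 0.17 ± 0.11 (adjusted p = 0.605). The median of the receptors was 0.07.

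Of the 4 Smads outside the 9 genes 0 passed in limma, and 1 was higher at an unadjusted p under 0.05, where 5.31% of all genes were. It was Smad9, a BMP-regulated Smad, which had values of 4.22, 5.79 and 4.81 in HKO livers and 3.81, 3.14 and 3.66 in Con livers. Every HKO array lay above every Con array, but HKO replicate 2 stood far above the other HKO arrays, and the change of 1.40 ± 0.36 did not pass (limma adjusted p = 0.209; change 0.98 without HKO replicate 2). The Con mean of 3.54 is not shown to be above background, so the size of this difference is uncertain. The other BMP-regulated Smads were close to 0, Smad1 at -0.05 ± 0.11 and Smad5 at 0.03 ± 0.11, both of which changed sign without 1 array. Smad6, the inhibitory Smad of the BMP branch, was at -0.28 ± 0.23 (adjusted p = 0.678) and overlapped, at -0.48 without HKO replicate 2 and -0.094 without Con replicate 3.

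Partners and brakes of the Smads gave 0 calls in limma among 16 and 17 genes, with medians of -0.06 and -0.07. At an unadjusted p under 0.05 there were 3 and 1, all lower in HKO, where 6.56% of all genes were lower. Jun, an AP-1 factor that acts with Smads at promoters, had values of 6.27, 6.83 and 6.95 in HKO and 7.45, 7.52 and 7.49 in Con (change -0.80 ± 0.17, adjusted p = 0.145). Atf3, a stress-induced Smad3 partner, was at -0.53 ± 0.20 (adjusted p = 0.371), with an HKO mean below the median gene. The corepressor Skil, which TGF-beta induces as feedback, was at -0.39 ± 0.14 (adjusted p = 0.351), Fkbp1a, which holds the type I receptor inactive, at -0.36 ± 0.16 (adjusted p = 0.429) and Pmepa1, a feedback gene that sequesters Smad2 and Smad3, at -0.25 ± 0.12 (adjusted p = 0.479). The 11 genes of the non-Smad branch gave 0 at an unadjusted p under 0.05, where 11.9% of all genes passed, and a median of 0.01. The kinase Mapk14 was at 0.15 ± 0.10 and the adaptor Tab1 at 0.14 ± 0.11.

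Genes that TGF-beta is known to induce were lower in HKO livers in most cases by value, while few passed the test. Of 24 measured genes 20 had lower means, and 1 fell in limma, where 0.203% of all genes passed in either direction. At an unadjusted p under 0.05 there were 13 lower and 1 higher, where 6.56% and 5.31% of all genes were. The groups did not overlap, in the lower direction, for 13 of 24, against 10.1% of all genes. The median change was -0.43. The list overlaps with matrix genes already known from these arrays to be lower, so it is a description and not independent evidence of direction.

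Col1a2, which encodes a type I collagen chain, fell: the HKO arrays held 4.70, 4.66 and 4.90 and the Con arrays 5.51, 5.78 and 5.91, a change of -0.98 ± 0.13 (1.97-fold lower, limma adjusted p = 0.0415). The groups were clearly apart, yet the call was lost without any single array (adjusted p from 0.0758 to 0.176), while the change ran from -1.09 to -0.89. A second, dim probe set of Col1a2 stood at -0.18. Averaged over both probe sets the change was -0.58.

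The remaining induced genes named here were chosen after their values were seen and did not pass. Col1a1, the other type I chain, was at 5.06, 5.23 and 5.51 in HKO and 6.56, 6.25 and 6.95 in Con (change -1.32 ± 0.19, limma adjusted p = 0.0533). Postn, periostin, a matrix protein of activated fibroblasts, was at 5.65, 5.50 and 6.15 in HKO and 6.91, 6.96 and 6.82 in Con (change -1.13 ± 0.17, adjusted p = 0.0537, and 0.0221 without HKO replicate 3). Both were apart in all arrays, as were Col3a1 (-0.84 ± 0.20), Timp1 (-0.78 ± 0.17, below the median gene), Acta2, the smooth muscle actin of myofibroblasts (-0.74 ± 0.24), Vim (-0.56 ± 0.12) and Tgfbi, a gene named for its induction by TGF-beta (-0.39 ± 0.11), with adjusted p from 0.142 to 0.294. A second probe set of Vim stood at -0.27, and the mean over both probe sets at -0.42.

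Not every induced gene was lower: 4 of the 24 had higher means, Fn1, Nox4, Cdh2 (0.06 ± 0.10) and Cdkn2b (0.04 ± 0.20). Fn1, fibronectin, which hepatocytes make in bulk, stood at 11.1, 11.0 and 11.0 in HKO and 11.0, 10.9 and 10.9 in Con (change 0.08 ± 0.09, limma adjusted p = 0.784). Nox4, an oxidase, was at 0.30 ± 0.13 (adjusted p = 0.409). By contrast, Ccn2, Cdkn1a and Snai1 had lower means, but with overlapping groups. Ccn2, connective tissue growth factor, was at -0.50 ± 0.25 (adjusted p = 0.491), with Con replicate 3 at 4.89 among the HKO values of 5.19, 5.02 and 4.79, and the cell cycle inhibitor Cdkn1a likewise overlapped because Con replicate 3 stood at 7.11, against HKO values of 6.92, 7.10 and 7.11 (change -0.75 ± 0.26). Without Con replicate 3 the change of Ccn2 was -0.80 and that of Cdkn1a -1.10 (adjusted p = 0.152 and 0.0378). Without Con replicate 2 they were -0.28 and -0.53, and a second, dim probe set of Ccn2 stood at 0.06, with a mean over both probe sets of -0.22. Snai1, the Snail family relative of the deleted gene, was at -0.34 ± 0.14 (adjusted p = 0.395) below the median gene.

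**Figure D4:**
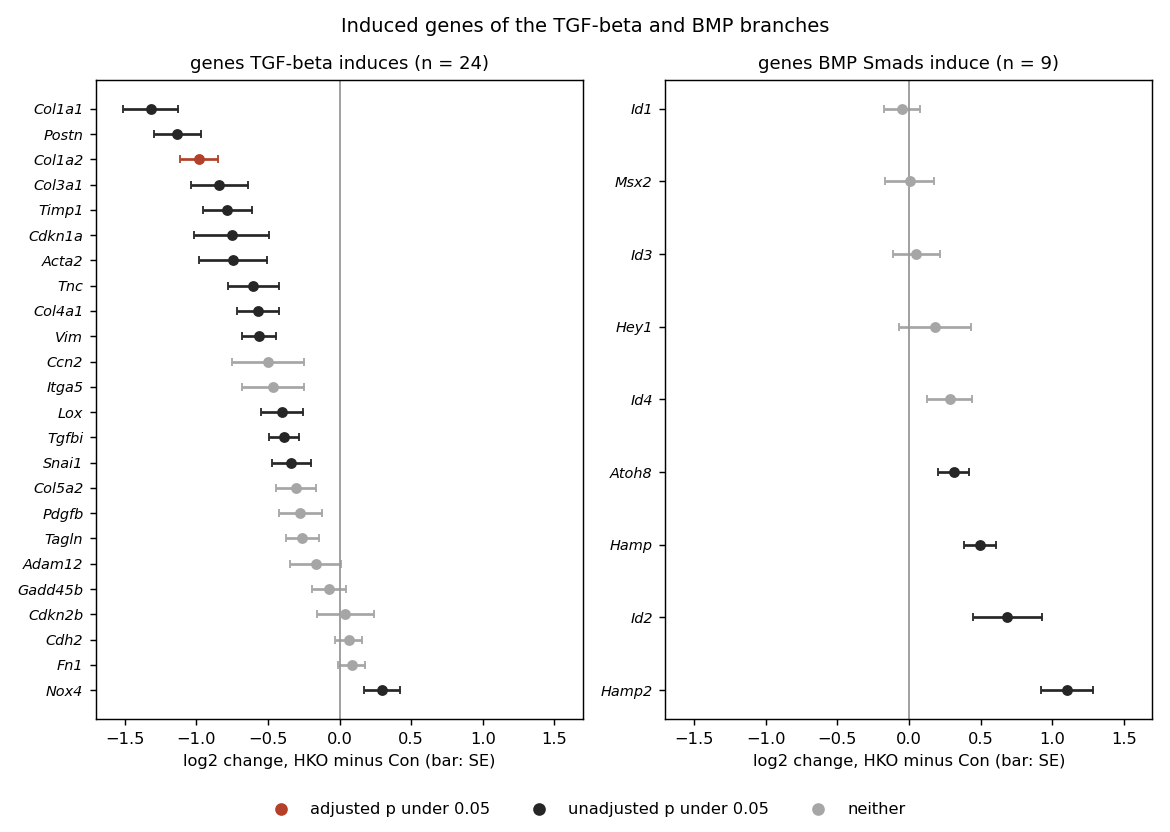
Log2 change (HKO minus Con) with SE of each measured gene that TGF-beta (left, 24 genes) or BMP Smads (right, 9 genes) are known to induce. Of the left-hand genes 20 lie below 0, and Col1a2 is the gene past adjusted p 0.05 (red); of the right-hand genes 8 lie above 0 and 0 passed.

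Genes that BMP Smads induce had the opposite sign by value in most cases. Their list was also chosen with earlier results of these data known, so this contrast is a description and not independent evidence. Of 9 measured genes 8 had higher means in HKO, with Msx2 (0.0043 ± 0.17) and Id3 (0.05 ± 0.16) close to no change. In limma 0 passed. At an unadjusted p under 0.05 there were 4 higher and 0 lower, where 5.31% and 6.56% of all genes were. The median of the list was 0.28. Hamp, hepcidin, the iron hormone of hepatocytes and a direct target of BMP Smads, stood at 11.6, 11.7 and 11.7 in HKO and 11.2, 11.3 and 11.0 in Con (change 0.50 ± 0.11, adjusted p = 0.162). Hamp2, its close copy in the mouse, stood at 8.90, 8.45 and 8.71 in HKO and 7.65, 7.86 and 7.24 in Con (change 1.10 ± 0.18, adjusted p = 0.0727).

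The 2 hepcidin genes are similar in sequence, and probes of either can take signal from the other, so they are not separate evidence. Atoh8, a factor that BMP induces with hepcidin, was at 0.31 ± 0.11 (adjusted p = 0.328) and apart in all arrays. Id2 was at 0.69 ± 0.24 (adjusted p = 0.333) and overlapped. Id1, the most general BMP target, was at 4.33, 4.60 and 4.5 in HKO and 4.37, 4.49 and 4.72 in Con, a change of -0.05 ± 0.13 (adjusted p = 0.921) whose sign turned without HKO replicate 1 or Con replicate 3.

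**Figure D5:**
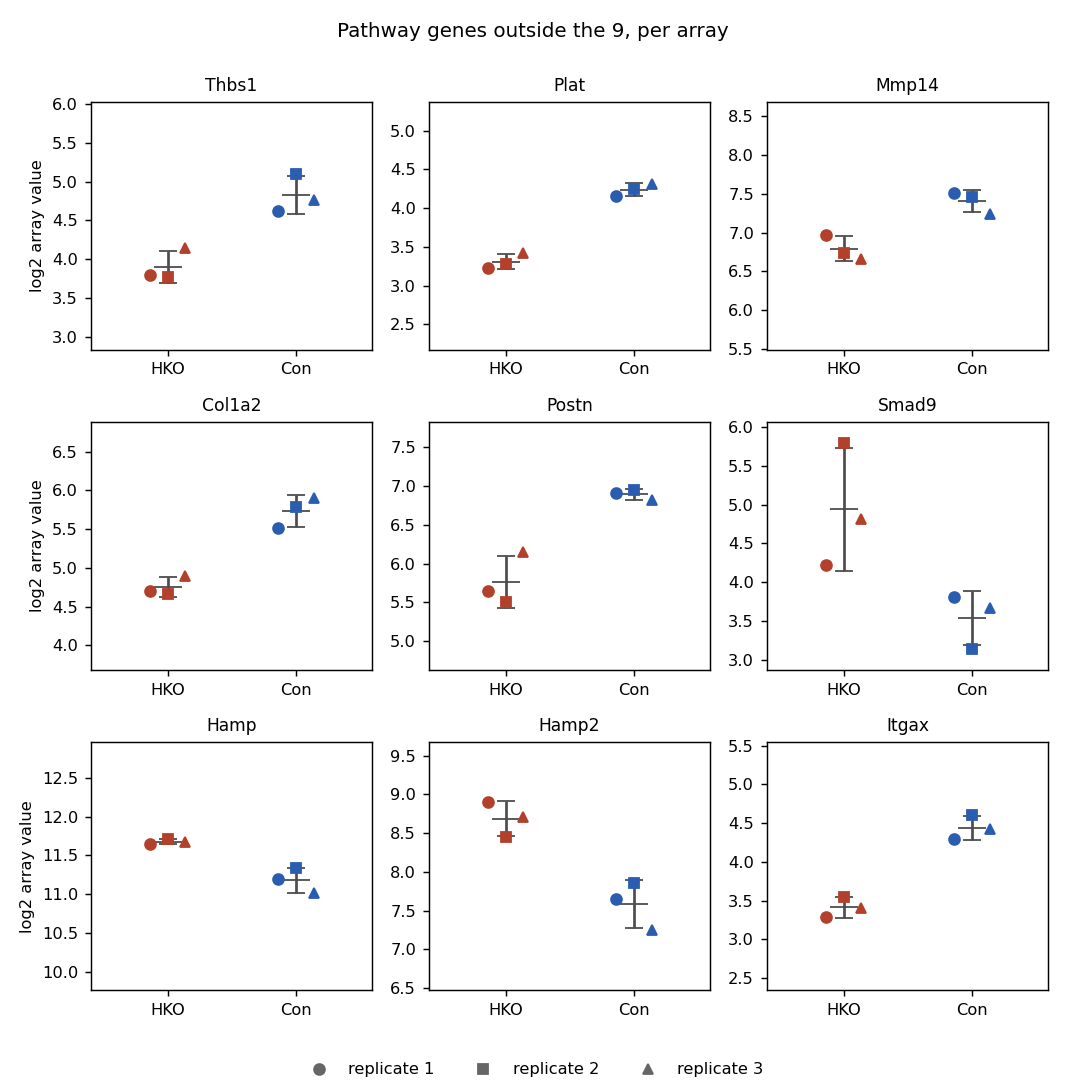
Log2 array value of 9 genes outside the core in 3 HKO and 3 Con livers, with group mean and SD; every panel spans 3.2 log2 units. The release genes Thbs1, Plat and Mmp14, the induced genes Col1a2 and Postn and the macrophage marker Itgax are lower in every HKO array, and Smad9, Hamp and Hamp2 higher; Plat, Col1a2 and Itgax passed adjusted p 0.05.

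Markers of other liver cells were read beside these genes, and their part in the results was not tested. Recruited and lipid-associated macrophage markers had lower means in 10 of 10 genes, 1 of which fell, where 0.203% of all genes passed in either direction. At an unadjusted p under 0.05 there were 7 lower and 0 higher, where 6.56% and 5.31% of all genes were. The gene that fell was Itgax (3.28, 3.55 and 3.41 in HKO and 4.29, 4.60 and 4.42 in Con, change -1.02 ± 0.12, limma adjusted p = 0.0280). Without any single array its change was -1.10 to -0.94 and its limma adjusted p 0.0621 to 0.149. The HKO mean of Itgax is not shown to be above background. The mean level of the 10 markers lay between 4.25 and 4.63 in HKO arrays and between 5.03 and 5.21 in Con arrays, with no overlap. The mean levels of the hepatocyte, endothelial and platelet markers given below did not overlap either. Kupffer cell markers, for resident macrophages, lay between 6.75 and 6.97 in HKO and 6.83 and 7.21 in Con. In limma 0 of 10 passed, and 1 was lower at an unadjusted p under 0.05, where 6.56% of all genes were. Means were lower in HKO for 7 of the 10 Kupffer markers and higher for 3. The higher ones were Clec4f (0.20 ± 0.10), Timd4 (0.12 ± 0.19) and Vsig4 (0.04 ± 0.12). HKO and Con arrays did not overlap for 1 higher gene, Clec4f, and 1 lower gene, C1qa, against 18.2% of all genes.

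Stellate cell markers, for the cells that respond most to TGF-beta, overlapped between the groups: the mean level of 12 markers was 5.38 to 5.62 in HKO and 5.51 to 5.77 in Con. In limma 0 of 12 passed, and at an unadjusted p under 0.05 there were 3 lower and 1 higher, where 6.56% and 5.31% of all genes were. Lrat, which stores vitamin A in quiescent stellate cells, was at 7.64, 7.70 and 8.08 in HKO and 7.67, 7.79 and 7.88 in Con (change 0.03 ± 0.14, -0.03 without Con replicate 1 and -0.11 without HKO replicate 3). Pdgfrb, a growth factor receptor that activated stellate cells raise, was at -0.73 ± 0.19 (adjusted p = 0.223), Nes at -0.60 ± 0.15 (below the median gene) and Hhip at 1.0 ± 0.22, neither past the threshold (adjusted p = 0.200 and 0.154). The Con mean of Hhip is not shown to be above background.

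In the remaining marker lists 0 genes passed in limma. At an unadjusted p under 0.05, 5.31% of all genes were higher and 6.56% lower. By that measure there were 2 of 9 hepatocyte markers (both higher) and 4 of 10 endothelial markers, sinusoidal and general (1 higher, 3 lower). There were also 1 of 10 T and NK cell markers (lower), 0 of 5 platelet and 0 of 5 cholangiocyte markers. Mean levels of hepatocyte markers lay at 10.4654 to 10.6309 in HKO and 10.3703 to 10.4647 in Con, apart by a very small margin. Those of endothelium lay at 7.76 to 7.78 in HKO and 7.81 to 7.83 in Con, with no overlap. Platelets carry much of the TGF-beta protein of blood. Their markers were dim in both groups, at 3.11 to 3.24 in HKO and 3.28 to 3.45 in Con, with no overlap. T and NK cell markers lay at 3.33 to 3.44 in HKO and 3.15 to 3.79 in Con, and cholangiocyte markers at 3.61 to 3.85 in HKO and 3.83 to 3.85 in Con. The genes with the lowest p in these lists were Serpina1a (0.40 ± 0.11) and Cps1 (0.27 ± 0.11) of hepatocytes, Ehd3 (0.35 ± 0.10) and Pecam1 (-0.29 ± 0.09) of endothelium, Klrb1c (-0.55 ± 0.13) and Cd8a (-0.30 ± 0.15) of lymphocytes, Gp9 (-0.18 ± 0.09) and Pf4 (-0.31 ± 0.28) of platelets, Krt7 (-0.30 ± 0.16) and Krt19 (0.14 ± 0.13) of cholangiocytes, and Cd5l (-0.39 ± 0.17) and C1qa (-0.47 ± 0.14) of Kupffer cells. Adjusted p of these 12 genes lay between 0.184 and 0.724.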

How the data were processed

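For 3 HKO and 3 Con livers, 6 arrays in all, the authors deposited 1 log2 value for each probe set. The submitters' processing notes name RMA and R 3.3.0. RMA subtracts background, equalises the distributions of the arrays and summarises probes, so values are relative within an array and changes of dim genes are compressed. Per the labels' protocols, 400 ng of total RNA was labelled per array. The sources used here do not state the array's genome build. Arrays have no read depth, and their number limits the precision.

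Of 41345 probe sets, 23521 named 1 gene, 1814 several and 16010 none in the platform annotation; 23328 were found by Entrez identifier in RefSeq GRCm38.p6. Each gene was read from its probe set with the highest mean, which left 22180 genes with no filter on low values. Every one of the 9 genes had 1 probe set. HKO was compared with Con in limma 3.58.1 (R 4.3.3; lmFit, eBayes, two-sided) over all genes, with Benjamini-Hochberg adjustment and intervals at 95%. P-values measure the spread between these mice; no batch is given in the labels. An exact permutation test of 3 against 3 arrays cannot go below p = 0.1 and was not used. The script was tested on simulated data. Figures were drawn with matplotlib 3.10.9.

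Named were Snai2, the 9 genes and, in each list, up to 4 genes past the threshold or otherwise the 2 with the lowest p; genes outside that rule, the co-receptors, Smads and induced genes named for their role among them, were picked with their values known. The 9 genes and all lists were chosen with earlier results of these data known. Listed genes with no probe set of their own were not used. Alternatives were a second quantile normalization, centring, 2 low-value filters, 3 ways to treat probe sets, 3 variance models, weighting of arrays, a block for the replicate number, 2 looser thresholds and leaving out each array.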

Additional observations from a re-analysis of the deposited data

How the results depend on the processing

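For the 9 genes, 0 passed adjusted p 0.05 in limma under the alternatives tried, with 1 (Tgfb3) at an unadjusted p of 0.05; the lowest adjusted p of the 9 was 0.199. Of 162 refits of single genes 157 kept the sign. Those that turned were Tgfbr2 (-0.334 to 0.0297 over left-out arrays), Smad2 (0.0101 after quantile normalization), Smad4 (-0.0100 to 0.0720 over left-out arrays) and Smad7 (0.0129 after quantile normalization; -0.0822 to 0.0137 over left-out arrays). Among the other named genes the sign turned for Smad1 (0.00998 after quantile normalization; -0.0995 to 0.0140 over left-out arrays) and, over left-out arrays, for Smad5 (-0.0307 to 0.111), Acvrl1 (-0.0263 to 0.0808), Id1 (-0.127 to 0.0488), Lrat (-0.109 to 0.110) and Pf4 (-0.514 to 0.0606). Leaving out 1 array turned the sign or moved the change by over 1.5 times for 9 of the 9 genes and for 29 of all 73 named. Causes were not tested.

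Over all genes the count of 45 became 138 and 132 with the filters on low values (fewer genes tested), 4 with every probe set on its own (more tests), 215 with a variance trend, 0 with no variance shared between genes (where 0 of the 137 pathway genes passed too), 3 with the replicate block, 115 at adjusted p 0.1 and 2632 at unadjusted p 0.05 (1177 higher, 1455 lower), and 4 to 32 without single arrays. The 2 pathway calls, Plat and Col1a2, became 1 after quantile normalization or with the mean of all probe sets, 5 and 6 with the filters, 0 with every probe set on its own, 4 with probe sets of several genes, 10 with a variance trend, 0 with the replicate block, 6 at adjusted p 0.1, 35 at unadjusted p 0.05, and 0 to 1 without single arrays. Snai2 stayed at -2.43 but missed the threshold with every probe set on its own, with no variance shared and with the replicate block (adjusted p = 0.0910, 0.234 and 0.0540), and ran from -2.69 to -2.15 over left-out arrays. Col1a1, Postn, Thbs1 and Hamp2 passed with the filters and with a variance trend.

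The replicate numbers of the labels are not stated to pair mice. Deviations from the group means correlated at 0.016 to 0.03 between same-numbered arrays and at -0.03 to 0.0061 between others. Here 6 of 6 arrays correlated best with their own number, a hint from the data only. The 6 matches are not independent, because the deviations in a group are tied to its own mean, and every correlation was weak. They cannot decide whether mice were paired. With the replicate block Col1a2, Plat and Itgax missed the threshold (adjusted p = 0.0789, 0.0675 and 0.0514). The HKO means of Tgfb2, Tgfb3 and Plat lay below the median level of 3.94, which limits what can be said of these genes.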
